A study of Mus musculus with 47 samples.

Results

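The arrays of ragweed-treated and PBS-treated mouse lungs taken 72 h after the last challenge were compared. Members were chosen by title, and 24 of the 47 arrays of the series carried the 72 h code, 12 from ragweed and 12 from PBS. By their titles they came from 4 samples, coded 1a and 1b in each treatment. Each code has the A, B and C arrays of the Affymetrix murine U74 set in the first version and again in version 2. Arrays of the same code were taken to be the same sample, but the RNA extraction behind each hybridization is not described. Ragweed mice received ragweed pollen protein with alum, an aluminium adjuvant, on days 0 and 3, and ragweed pollen protein into the trachea on days 10 and 17. PBS mice received PBS on the same days by the same routes, with no adjuvant named, so an effect of alum and one of the allergen cannot be told apart. The other 23 arrays were of lungs of both treatments taken at 24 h. Of these, 22 entered the fits as further groups, also with samples 1a and 1b, but no ragweed array of 24 h was in the version 2 A table. The labels give no strain, sex or age and do not say that 1a and 1b came from different mice. The p-values therefore measure the scatter between samples 1a and 1b, part or all of which may be technical. That scatter was pooled over all groups of a table, those of 24 h included, and moderated toward that of other probe sets.

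Ragweed pollen is a common cause of hay fever and asthma, and sensitized mice challenged with it through the airway are used as a model of allergic lung inflammation. In this kind of response, type 2 cytokines such as interleukin 4 and interleukin 13 act through the shared receptor chain Il4ra and the transcription factor Stat6. Epithelial cells then make eotaxins and mucus, macrophages take on an alternatively activated state marked by Arg1, Chil3 and Retnla, and B cells mature into antibody-secreting plasma cells. In whole lung RNA, fewer cells of a type and less RNA per cell cannot be told apart.

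Each sample, as coded in the titles, thus had 2 readings of many probe sets, 1 per array version. They were treated as a technical repeat and not as further replicates. The main comparison used 1 table of each letter, first-version A, since version 2 A lacks a group, and version 2 B and C. Of 25250 probe sets, limma called 133 at an adjusted p under 0.05 (0.527%), 84 higher in ragweed (0.333%) and 49 lower (0.194%). On the remaining tables (version 2 A, first-version B and C) 85 of 19312 probe sets were called (0.44%), 63 higher (0.326%) and 22 lower (0.114%). The same fit was also made on each sample's mean log2 value over both versions, for the 16828 probe sets tested on both, and called 280 of them (1.66%), 188 higher (1.12%) and 92 lower (0.547%). One probe set stood for each gene. The main tables then called 49 of 12840 genes higher (0.382%) and 35 lower (0.273%), and the fit on both versions called 121 of 10080 higher (1.2%) and 76 lower (0.754%). In 110 of the 121 and 67 of the 76 the groups did not overlap on either version, beside 5.27% of all genes with ragweed above PBS on both and 6.05% with ragweed below. Readings under a floor, the 40th percentile of the table, were raised to it before the fit, so a difference is given as "at least" where a whole group lay under the floor on a version. Values below are array intensities, PBS 1a and 1b before ragweed 1a and 1b, and differences are log2 ragweed minus PBS ± standard error (SE) with 2 samples per group, from the fit on both versions unless another is named.

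The rises repeated on the other version more often than the falls. Of the 84 main-table rises, 80 were tested there, 74 had the same sign and 34 were called. Of the 49 falls, 36 were tested, 30 had the same sign and 6 were called. In the fit on both versions, 45 of the 121 rises and 17 of the 76 falls were called in every fit that left out 1 sample. Over all probe sets tested on both versions, 8912 of 16828 had the same sign. Replicate arrays of the 72 h groups correlated with r from 0.886 to 0.977. Actin probe sets at the 3' and 5' ends of the transcript gave a 3'/5' ratio on version 2 A of 0.189 and 0.198 for PBS of 72 h, 0.535 and 0.437 for PBS of 24 h, and 0.801 and 0.578 for ragweed of 72 h. On first-version A the ratio ran from 0.798 to 0.968. The brightest probe set of version 2 A read 21250 and 18701 in PBS of 72 h and 40632 and 32966 in ragweed. The part of these properties in the results was not tested.

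Among the chemokines of eosinophils and T helper 2 cells, 4 of 9 measured on both versions rose and none fell, with a median of 0.84 beside -0.01 over all 10080 genes. Ccl8, which attracts T helper 2 cells, had the largest difference of all 10080 genes. Its first-version intensity was 737 and 423 in PBS and 15972 and 16832 in ragweed, and its version 2 intensity was 509 and 205 in PBS and 18591 and 16655 in ragweed. On either version every ragweed sample lay more than an order of magnitude above every PBS sample, and the difference was 5.27 ± 0.24 (adjusted p = 1.79e-06). Ccl9, a chemokine for myeloid cells, rose by 2.14 ± 0.19 (adjusted p = 1.36e-04). The eotaxins Ccl11 and Ccl24, which draw eosinophils through the receptor Ccr3, were not called on the main tables (adjusted p = 0.421 and 0.302) and were called with both versions. Ccl11 read 96, 149, 872 and 903 on version 2 and 65, 360, 712 and 454 on the first version, a difference of at least 1.36 ± 0.18 (adjusted p = 0.0025). Ccl24 read 577, 647, 1602 and 1408 on the first version and 524, 297, 1057 and 995 on version 2, a difference of 1.27 ± 0.27 (adjusted p = 0.0271), called in 3 of 8 fits that left out 1 sample. Ccl22, another ligand of T helper 2 cells, differed by 0.17 (adjusted p = 0.783), with values that overlapped on version 2. Among the CXC chemokines, none of 7 rose and Cxcl12, a stromal chemokine, fell by 0.61 (adjusted p = 0.0396).

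Alternatively activated macrophage genes rose in 7 of 12 measured, with none lower and a median of 0.76. Chil3, a chitinase-like protein secreted by these cells, read 4083, 2826, 35126 and 26925 on version 2. Its first-version readings were 3042, 2710, 52066 and 50946, and the difference was 3.67 ± 0.13 (adjusted p = 2.31e-07). Mmp12, the macrophage elastase, rose by 2.66 ± 0.13 (adjusted p = 2.19e-06), with version 2 values of 2222, 1786, 13417 and 13097. Arg1, which breaks down arginine, was below the floor in all 4 PBS readings (216 and 147, then 184 and 200) and above it in ragweed (718 and 609, then 945 and 933). Its difference was therefore at least 1.58 ± 0.17 (adjusted p = 5.4e-04), though the main table alone had not called it (adjusted p = 0.122). Lectin receptors of these cells were called with both versions but not on the main tables (adjusted p = 0.346, 0.698 and 0.0666 for Mrc1, Mgl2 and Clec10a). Mrc1, the mannose receptor, rose by 1.05 ± 0.18 (adjusted p = 0.0137), Mgl2 by 1.21 ± 0.27 (adjusted p = 0.0371) and Clec10a by 0.83 ± 0.18 (adjusted p = 0.0349), and these were called in 4, 2 and 3 of the 8 fits without 1 sample. The versions differed in size, at 1.78 on the first and 0.64 on version 2 for Mgl2 and 0.33 and 1.33 for Clec10a. Fn1, fibronectin, made up the 7 with 0.45 ± 0.10 (adjusted p = 0.0414).

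Some genes of the chitinase and resistin families were carried by a single version. Chia1, the acidic mammalian chitinase, was measured on version 2 A alone, at 1763, 1309, 18009 and 17445, a difference of 3.54 ± 0.16 (11.7-fold, adjusted p = 0.00189). Version 2 A is the table with the unequal actin ratios given above, whose part in this difference was not tested. Retnla, a secreted resistin-like protein, was measured on version 2 B alone, at 1746, 1240, 11151 and 8040 (main tables, 2.69 ± 0.25, adjusted p = 0.00105). Retnlb, its relative in mucus-making epithelium, lay below the floor in all PBS readings, from 30 to 95, and between 491 and 703 in ragweed, a rise of at least 1.03 ± 0.17 (adjusted p = 0.00897). Chil1, a further chitinase-like protein of macrophages and epithelium, rose from 3742, 4756, 6952 and 4830 over both versions to 11557, 12576, 13468 and 14194, by 1.38 ± 0.09 (adjusted p = 2.54e-05). In each of these genes no ragweed reading overlapped a PBS reading of the same version.

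**Figure D1:**
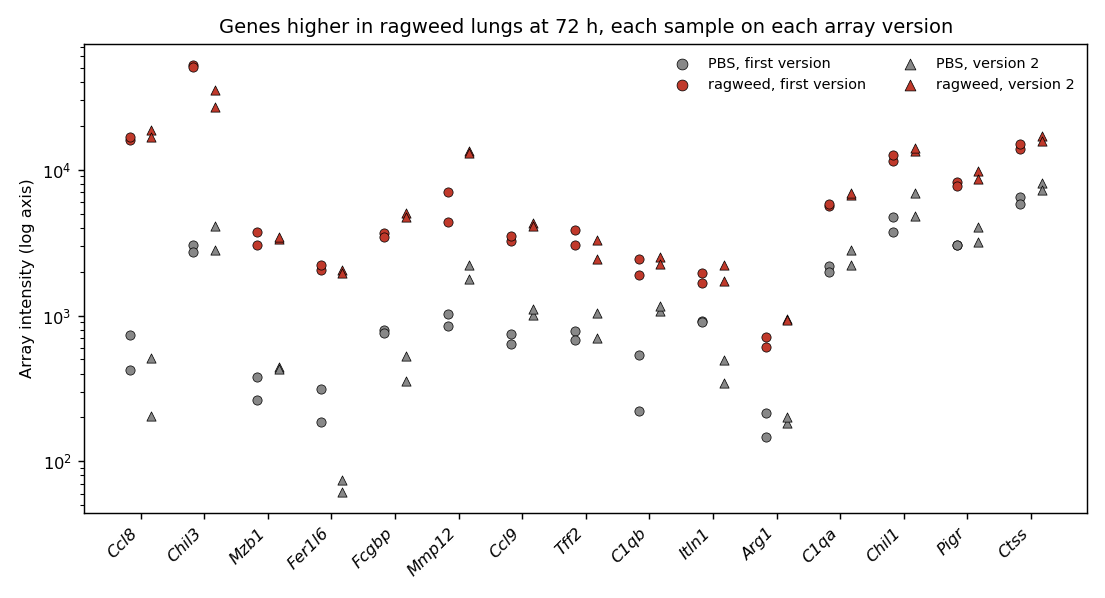
Array intensity on a log axis for 15 genes that were higher in ragweed at 72 h, with 1 point per sample: grey for PBS, red for ragweed, circles for the first version and triangles for version 2. The red points lie above the grey ones of the same shape for every gene, from Ccl8 with values of 15972 to 18591 in ragweed to Arg1 with values of 609 to 945.

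Wider macrophage genes rose as well, by smaller amounts. Of 24 macrophage and monocyte markers 8 rose and none fell (median 0.39), where the main tables had called 1 of 26. Ms4a7, a tetraspan protein of mature macrophages, rose by 1.34 ± 0.21 (adjusted p = 0.00308), with first-version readings of 2275, 1846, 4252 and 6938. Itgax, the CD11c integrin of alveolar macrophages and dendritic cells, rose by 0.88 ± 0.17 (adjusted p = 0.0205). Cd68, Cd53, Mpeg1, Lgals3, Cyba and Apoe rose by 0.39 to 0.80, but Mpeg1, a pore-forming protein, overlapped on version 2 (3172, 3338, 2852 and 4118). Against PBS of 24 h Lgals3 differed by -0.29 and was not called. Lyz2, Cx3cr1 and Fcgr1, which also mark the lineage, differed by 0.12, -0.18 and 0.19 and were not called.

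Genes of the first complement component, which macrophages make in tissue, gave 3 of the 4 rises among 14 complement genes. C1qa read 2190, 1998, 5683 and 5867 on the first version and 2807, 2212, 6661 and 6886 on version 2, a difference of 1.45 ± 0.11 (adjusted p = 4.64e-05). C1qb rose by 1.77 ± 0.18 (adjusted p = 2.79e-04) and C1qc by 1.20 ± 0.10 (adjusted p = 1.03e-04), so that all 3 chains of C1q rose. C5, listed under its symbol Hc, rose by 0.93 ± 0.11 (adjusted p = 0.0011). Fcgr2b, the inhibitory IgG receptor of macrophages and B cells, rose by at least 1.40 ± 0.18 (adjusted p = 0.00148). F7, coagulation factor VII, rose by 1.45 ± 0.19 (adjusted p = 0.00236), with version 2 values of 306, 333, 1121 and 1145.

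Of 31 lysosomal proteases and hydrolases, 5 rose and none fell, beside 1.2% of all genes called higher. Ctss, the cathepsin that trims the invariant chain of MHC class II, rose by 1.16 ± 0.09 (adjusted p = 5.26e-05). Lgmn, the asparaginyl endopeptidase, rose by 0.99 ± 0.12, Ctsz by 0.97 ± 0.11 and Ctsb by 0.84 ± 0.09 (adjusted p = 0.00143, 8.66e-04 and 3.55e-04), and Cd68 is listed here too. A probe set of Ctsk, a collagen-cleaving cathepsin, on version 2 A alone, the table with the unequal actin ratios, read 629, 756, 1734 and 1875. It rose by 1.39 ± 0.19 (adjusted p = 0.0436), but another Ctsk probe set differed by 0.02 ± 0.55 on the main tables and was not called. Ifi30, the lysosomal thiol reductase, rose by 0.73 (adjusted p = 0.00821) and Pld3 by 0.72 (adjusted p = 0.0149). Fbp1, a gluconeogenic enzyme, rose by at least 1.63 ± 0.17 (adjusted p = 4.51e-04), and Gatm, which makes the creatine precursor, by 1.27 ± 0.17 (adjusted p = 0.00201).

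MHC class II genes, which present antigen to CD4 T cells, rose in 5 of 11 measured, with none lower (median 0.48), where the main tables had called H2-Aa alone. H2-Aa, H2-Ab1, H2-Ea, H2-Eb1 and H2-DMb1 rose by 0.66, 0.59, 0.61, 0.74 and 0.78, each with an SE between 0.10 and 0.14. H2-Eb1 read 3658, 4442, 7065 and 7165 on the first version and 5362, 5377, 9104 and 7957 on version 2. Against PBS of 24 h, 8 of the 11 were called higher, with a median of 0.93. The class I genes H2-K1 and H2-D1 rose by 0.47 and 0.65, the called members among 13 of that list, and 7 of these were called against PBS of 24 h.

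Mucous and goblet cell genes rose in 6 of 10 measured on both versions, and in 6 of 15 on the main tables, with none lower in either. Fcgbp, a mucus protein that binds IgG, rose by 2.85 ± 0.16 (adjusted p = 1.04e-05), with 357, 525, 5013 and 4737 on version 2. The difference was larger on version 2 (3.49) than on the first version (2.20). Tff2, a trefoil peptide that stabilizes mucus, rose by 1.99 ± 0.19 (adjusted p = 1.83e-04). Itln1, a goblet cell lectin, read 924, 897, 1959 and 1671 on the first version and 345, 494, 1730 and 2229 on version 2, a rise of 1.62 ± 0.18 (adjusted p = 5.58e-04) that the main table had not called (adjusted p = 0.16). Agr2, which folds mucins, read 220, 56, 1060 and 914 on the first version and 137, 252, 630 and 696 on version 2, and rose (adjusted p = 0.00148). The antimicrobial lectin Reg3g was called at 0.92 ± 0.16 (adjusted p = 0.0146), but its version 2 readings of 1181, 1710, 1806 and 1677 overlapped.

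Of the mucins themselves, Muc5b and Muc5ac were tested on single versions. Muc1 differed by -0.09 on the first version and -0.06 on version 2, and Muc4 by 0.18 on the main tables. Neither Muc1 nor Muc4 was called on the main tables. Muc5b, a gel-forming airway mucin, read 3799, 3500, 12138 and 11850 on version 2 C, a rise of 1.72 ± 0.18 on the main tables (adjusted p = 0.00606). Muc5ac, the mucin of goblet cells, read 22 and 9 in PBS and 305 and 437 in ragweed on version 2 A. Its PBS values lay under the floor of 237.8 and its difference of at least 0.62 ± 0.20 was not called (adjusted p = 0.322). Bpifb1, which mucous cells secrete, rose by 1.77 ± 0.22 on version 2 C (adjusted p = 0.0136) and, with another probe set, by 1.87 ± 0.12 on version 2 A (adjusted p = 0.0031). Clca1, a goblet cell protease, lay below the floor in PBS, at 154 and 278 and then 130 and 148, and read 470 and 698 and then 318 and 243 in ragweed (at least 0.60, adjusted p = 0.108). Fer1l6, a ferlin of secretory epithelium, rose by at least 2.93 ± 0.31 (adjusted p = 1.44e-04). Pigr, the receptor that moves IgA to the airway surface, went from 3035, 3046, 4017 and 3219 over both versions to 8240, 7798, 9810 and 8656, a rise of 1.38 ± 0.10 (adjusted p = 4.64e-05). Capn9, a calpain of mucous epithelium, rose by at least 1.24 ± 0.18 (adjusted p = 0.0046).

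Immunoglobulin transcripts, the product of B and plasma cells, made up a large part of the rises. Of 55 immunoglobulin probe sets tested on both versions, 38 rose, none fell and 52 had a positive difference, with a median of 1.29 and a range from -0.72 to 3.15. The main tables called 25 of 65 higher and the other tables called 12 of 60, with none lower. Of the 55, 28 are family probe sets, whose probes match several related genes, and 10 carry more than 1 symbol, so single segments cannot be separated and the probe sets are not independent. Of the Ighm probe sets, for the IgM heavy chain, the one with the largest difference read 690, 707, 7292 and 7592 on the first version and 781, 2997, 12043 and 10654 on version 2, a rise of 3.15 ± 0.25 (adjusted p = 5.84e-05). Another Ighm probe set, brighter in PBS, read 9835, 10114, 37862 and 29833 on the first version, a rise of 1.57 ± 0.14 (adjusted p = 1.15e-04). A family probe set of Ighg3, an IgG heavy chain, rose by at least 2.10 ± 0.20 (adjusted p = 2.48e-04). Among its further family probe sets, those at 2.14 and at least 1.29 were called and that at 0.65 or more was not (adjusted p = 0.0793). The Ighg3 probe sets outside the families differed by 0.88 and 0.45 and were not called (adjusted p = 0.122 and 0.323). One probe set of Igha, the IgA heavy chain, rose by 1.26 ± 0.17 (adjusted p = 0.00249), and the other differed by 0.10 (adjusted p = 0.953).

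Light chain segments rose across several families. Igkv6-23 read 12420, 11638, 40262 and 48010 on the first version and 11043, 15642, 36874 and 27382 on version 2, a rise of 1.57 ± 0.10 (adjusted p = 1.45e-05) on a family probe set. A probe set that carries Igkv6-23 beside Igkc and other kappa segments read 24501, 22861, 26269 and 15520 on the first version and 11164, 3937, 8132 and 7556 on version 2, and differed by 0.01 (adjusted p = 0.998). Igkv4-70, Igkv9-120, Igkv6-14 and Igkv10-96 rose by 2.37 ± 0.18, 2.36 ± 0.24, 2.41 ± 0.26 and 2.06 ± 0.19. Another probe set of Igkv9-120 differed by at least 0.51 and was not called (adjusted p = 0.154). Further ones of Igkv9-120 and Igkv6-14, tested on the main tables alone, were not called at 0.75 and -0.38 (adjusted p = 0.472 and 0.63). For the rising probe sets given here for the 5 segments, PBS 1b of 72 h read above PBS 1a on version 2. Examples are Igkv4-70 (894 and 2037) and Igkv6-14 (426 and 1555). Igkv6-23 was lower in PBS of 24 h, at 1865 and 2195 on the first version. The median of the 55 against PBS of 24 h was 1.80, with 44 called higher. Differences against PBS of 24 h share the ragweed samples with those above.

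**Figure D2:**
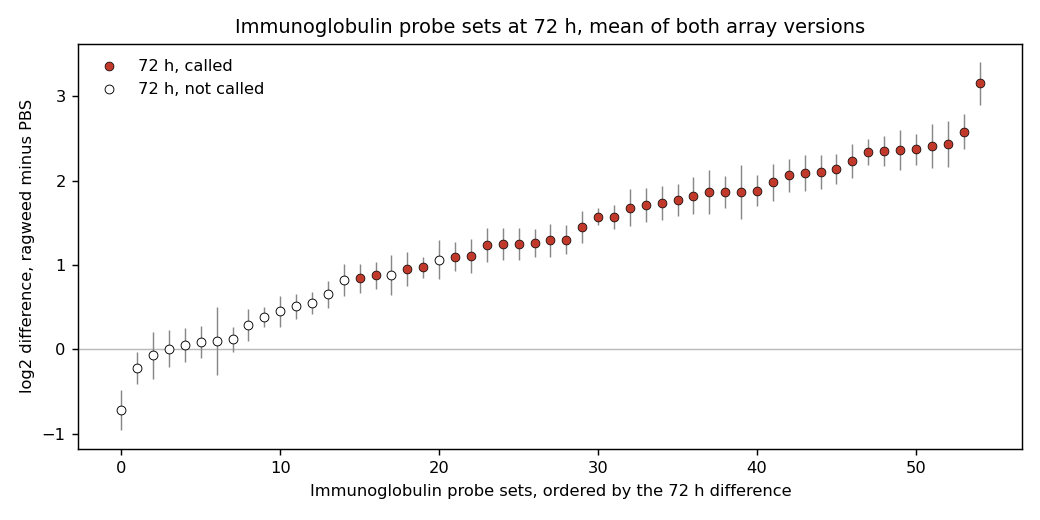
Each point is 1 of the 55 immunoglobulin probe sets, ordered by its log2 difference between ragweed and PBS at 72 h from the fit on both versions. Bars show the standard error, red points were called and open points were not. Of the 55, 38 are red, and the lowest lies at -0.72 and the highest at 3.15.

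Of 10 plasma cell genes that are not immunoglobulins, 2 rose. Mzb1, an endoplasmic reticulum protein of plasma cells, read 445, 432, 3356 and 3467 on version 2 and 381, 262, 3713 and 3027 on the first version, a rise of 3.07 ± 0.30 (adjusted p = 7.17e-05). Jchain, which links IgM and IgA chains, rose by 1.74 ± 0.20 (adjusted p = 7.68e-04), from 1139 and 1174 to 3762 and 4184 on the first version. The other 8 were not called, among them Xbp1 and Prdm1, transcription factors of plasma cells (0.26 and 0.02), the surface protein Sdc1 (-0.36) and the receptor Tnfrsf17 (0.42). With the immunoglobulins Igha, Ighm and Ighg3, 5 of the 14 members of the list rose and none fell. Among 13 B cell markers 3 rose: Blnk, an adaptor of the B cell receptor, by 0.96 ± 0.20, Pou2af1, a coactivator of immunoglobulin genes, by 0.92 ± 0.19, and Cd22, an inhibitory receptor, by 0.87 ± 0.19 (adjusted p = 0.041, 0.0346 and 0.0428). They were called in 3, 2 and 2 of the 8 fits without 1 sample. Cd79a, Pax5 and Ms4a1, defining B cell genes, differed by -0.01, 0.03 and 0.47 and were not called.

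Markers of other leukocytes showed fewer calls. None of 8 T cell markers was called (median -0.07), and none of 7 chemokine receptors. Of the eosinophil markers 1 was measured on both versions, Alox15, a lipoxygenase that macrophages also make, which rose by at least 1.14 ± 0.20 (adjusted p = 0.0126) and read 250, 374, 680 and 864 on version 2. Among 8 mast cell and basophil markers none rose and Gata2, a factor of mast cells and endothelium, fell by 0.63 ± 0.10 (adjusted p = 0.00846). Mcpt1, a mast cell protease, differed by -0.62 on the first version and at least 0.69 on version 2, neither called. Of 8 neutrophil markers 2 fell, S100a8 by 0.70 ± 0.14 and S100a9 by 0.72 ± 0.15 (adjusted p = 0.0316 and 0.0388). Both are calgranulins, and against PBS of 24 h they differed by -0.24 and -0.05, not called.

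Of 11 genes of type 2 signalling, 2 rose. Il33, an alarmin of epithelium, rose by 0.78 ± 0.14 (adjusted p = 0.0103), and the other was Alox15. Il33 read 5953, 4945, 9695 and 11137 on the first version and 5873, 4408, 7343 and 8398 on version 2. The main table alone had not called it (0.63, adjusted p = 0.317), nor had it against PBS of 24 h (0.52, adjusted p = 0.35). The receptor chains and the transcription factor were not called: Il4ra differed by 0.06, Il13ra1 by 0.27 and Stat6 by -0.39. Tslp, another alarmin, differed by 0.16 ± 0.54 and was not called. Il5 lay below the floor in 3 of its 4 first-version values. Ccl17, Il4, Il13, Il13ra2, Prg2 and Cpa3 lacked a probe set that passed the filter on dim values, and Il1rl1 and Chil4 were not analysed here.

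**Figure D3:**
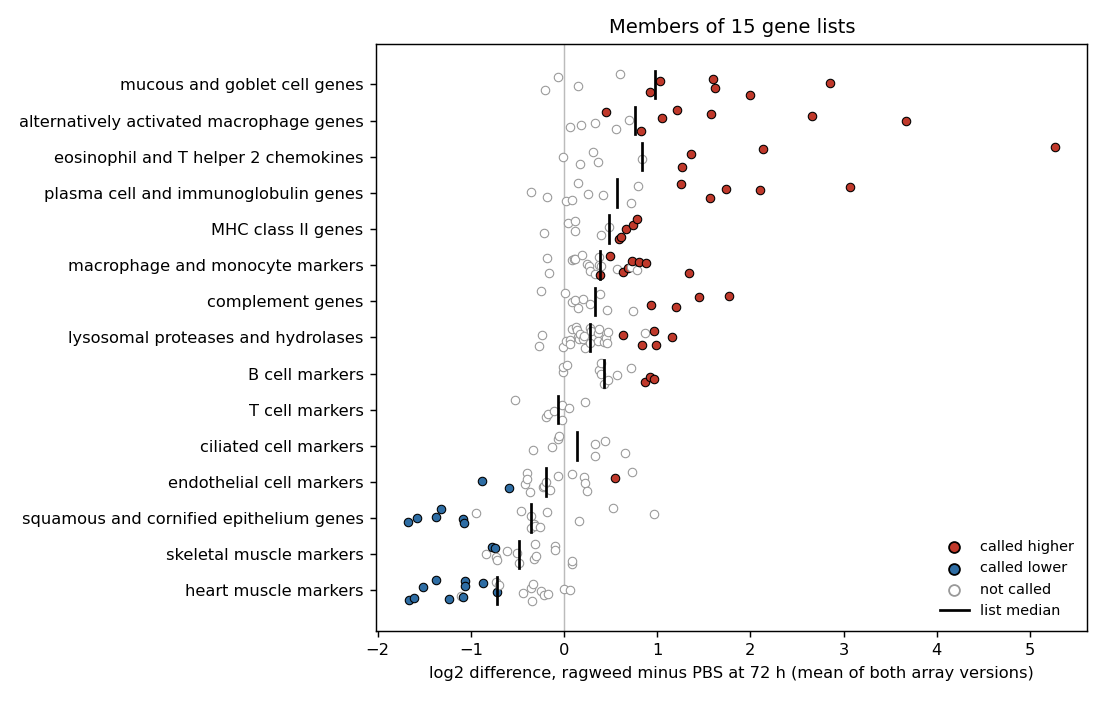
Each point is 1 gene of 15 lists, placed by its log2 difference between ragweed and PBS at 72 h from the fit on both versions. Red points were called higher, blue points lower, open points were not called, and the bar is the list median. Medians run from 0.98 in mucous genes to -0.72 in heart muscle markers, beside -0.01 over all genes.

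Of the 76 genes called lower, 20 were on the lists of heart muscle, skeletal muscle, fat and squamous epithelium. These lists held 22, 15, 11 and 17 of the 10080 genes tested. Among 22 heart muscle markers measured on both versions 10 fell and none rose (median -0.72), beside a background of 0.754% of genes called lower. The main tables had called 2 of 23. They included Myl7, the atrial myosin light chain, which read 2926, 3428, 1141 and 1440 on the first version and 4001, 7652, 1503 and 1249 on version 2, a fall of 1.66 ± 0.16 on the log2 scale (adjusted p = 2.48e-04). Myh6, a heavy chain of heart myosin, fell by 1.61 ± 0.19 (adjusted p = 8.66e-04) and Nppa, atrial natriuretic peptide, by 1.51 ± 0.19 (adjusted p = 0.00143). Troponin genes of the heart, Tnnc1, Tnni3 and Tnnt2, fell by 1.24, 1.09 and 1.06. Tnnc1 rested on version 2 (-2.34), since its first-version readings of 632, 600, 604 and 517 overlapped (-0.14). On version 2 the PBS sample 1b was the higher of the pair for Myl7, Nppa (1714 and 3272), Tnni3 (1531 and 2935) and Tnnt2 (770 and 2031).

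Of 15 skeletal muscle markers 2 fell, Acta1, skeletal actin, by 0.77 ± 0.09 (adjusted p = 6.84e-04) and Eno3, muscle enolase, by 0.74 ± 0.15 (adjusted p = 0.0274). Of 11 fat cell markers 2 fell, Ucp1, the uncoupling protein of brown fat, by 1.96 ± 0.32 (adjusted p = 0.00803) and Adipoq, adiponectin, by 1.05 ± 0.21 (adjusted p = 0.0349). Ucp1 read 1046 and 1057 in PBS on the first version but 716 and 3764 on version 2. In ragweed it read 328 and 482, then 342 and 98. The fat cell list as a whole summed to 27536 and 29863 in PBS and 30266 and 29971 in ragweed on the main tables.

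Squamous and cornified epithelium genes, which line the oesophagus, mouth and skin, fell in 6 of 17 measured on both versions and in 8 of 24 on the main tables. Krt13, a keratin of such epithelium, read 3683, 3708, 1435 and 1362 on the first version and 4298, 5526, 1234 and 1301 on version 2, a fall of 1.67 ± 0.12 (adjusted p = 3.46e-05). Krtdap, a keratinocyte differentiation protein, fell by 1.32 ± 0.11 (adjusted p = 8.78e-05), Sbsn, suprabasin, by 1.37 ± 0.20 and Krt4 by 1.08 ± 0.11 (adjusted p = 0.00201 and 3.46e-04). Lce3a, of the cornified envelope, was measured on version 2 C alone, at 10286, 11199, 2815 and 1377. Outside the list, Mt4, the metallothionein of squamous epithelium, fell by 1.39 ± 0.14 (adjusted p = 2.96e-04).

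The PBS samples of 24 h did not share the high levels of the PBS samples of 72 h. The summed intensity of the squamous list on the main tables was 77462 and 75264 for PBS of 24 h, 115835 and 122675 for PBS of 72 h, and 76027 and 59484 for ragweed of 72 h. For the heart list it was 22924 and 22857, then 32724 and 35437, then 23296 and 23158. Against PBS of 24 h the list median was 0.12 for squamous genes, with none called lower, and -0.22 for heart muscle, with 2 called lower. Which tissue in each sample this RNA came from was not tested. Over all genes called lower, 33 of 76 were also called lower against PBS of 24 h and 18 had the opposite sign, while 97 of 121 genes called higher were called higher there and 5 had the opposite sign. Of all genes, 2.44% were called higher and 2.39% lower against PBS of 24 h.

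**Figure D4:**
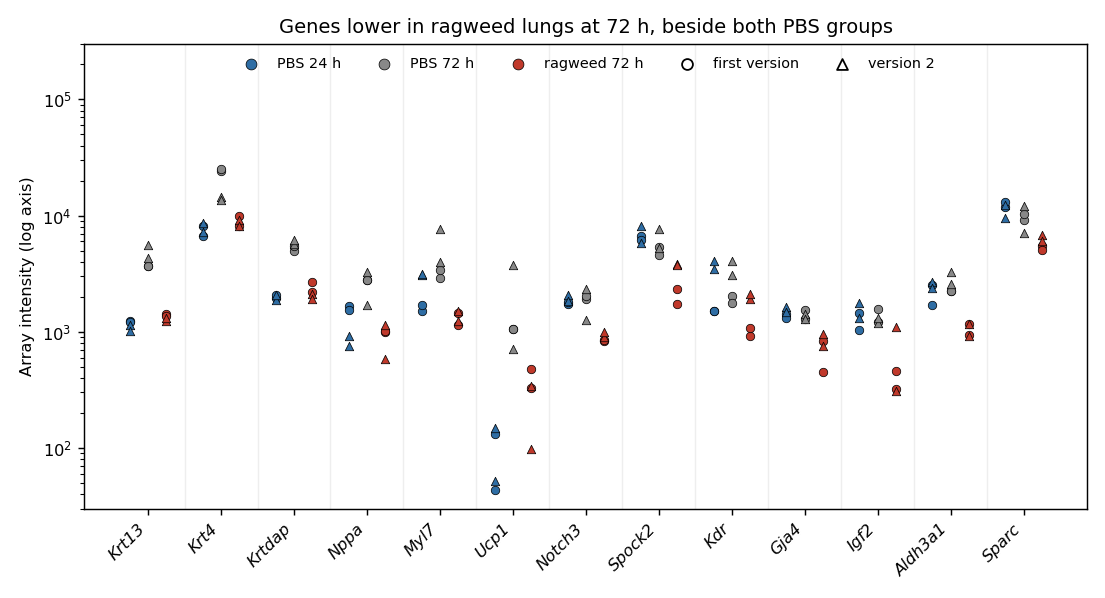
Array intensity on a log axis for 13 genes that were lower in ragweed at 72 h, with 1 point per sample in PBS at 24 h (blue), PBS at 72 h (grey) and ragweed at 72 h (red), circles for the first version and triangles for version 2. For Krt13, Krt4 and Krtdap the blue and red points lie together under the grey ones, and for Notch3, Spock2 and Sparc the blue points lie above the red ones.

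The genes described next were picked, after their values were seen, from the 33 called lower against both PBS groups, which also held the heart muscle genes Myl7 and Cox6a2 and the mast cell list's Gata2. Notch3, the Notch receptor of mural cells, read 1895, 2048, 826 and 854 on the first version and 2349, 1269, 896 and 991 on version 2, a fall of 1.05 ± 0.15 (adjusted p = 0.0034). Against PBS of 24 h its difference was -1.06. Kdr, the main receptor for vascular endothelial growth factor, read 2025, 1767, 915 and 1076 on the first version and 4093, 3087, 1908 and 2119 on version 2. It fell by 0.88 ± 0.13 (adjusted p = 0.00512) and differed by -0.75 from PBS of 24 h. Gja4, a connexin of arterial endothelium, fell by 0.93 ± 0.20, Hey1, a Notch target, by 0.72 ± 0.13, Smad6, an inhibitor of BMP signalling, by 0.53 ± 0.10, and Ramp2, a subunit of the adrenomedullin receptor, by 0.49 ± 0.10 (adjusted p = 0.042, 0.0191, 0.0183 and 0.0414). All 4 were called lower against PBS of 24 h.

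The vessel lists as a whole did not move one way. Of 17 endothelial markers Kdr and Cdh5, the endothelial cadherin, fell and Vwf, von Willebrand factor, rose by 0.55 ± 0.12 (adjusted p = 0.0426), with a median of -0.19. Kdr was the 1 of these 17 called lower against PBS of 24 h, from which Cdh5 differed by -0.29 on the main tables. Of 12 smooth muscle and mural cell markers Notch3 fell while Acta2 and Myh11, contractile proteins of smooth muscle, rose by 0.67 ± 0.11 and 0.68 ± 0.13 (adjusted p = 0.00641 and 0.0199). Acta2 and Myh11 were also called higher against PBS of 24 h, at 0.78 and 0.86.

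Among matrix genes, 2 of 25 rose and 2 fell. Sparc, a collagen-binding protein, read 9198, 10299, 5490 and 5045 on the first version and fell by 0.70 ± 0.11 (adjusted p = 0.00785). On version 2 its readings of 12014, 7013, 6824 and 6083 put PBS 1b close to the ragweed samples. Dcn, decorin, fell by 0.80 ± 0.11 (adjusted p = 0.00205) and Col6a1 rose by 0.54 ± 0.10 (adjusted p = 0.0242). On the main tables Dcn and Col6a1 differed by 0.05 and 0.15 from PBS of 24 h, so the fall of Dcn was absent there. A probe set of Spock2, a testican proteoglycan of the lung, fell by 1.03 ± 0.12 (adjusted p = 9.34e-04), and by 1.27 against PBS of 24 h. It was the 1 called lower of 3 Spock2 probe sets tested in the main comparison. The other 2 had positive differences and were not called. Col1a1, the main fibrillar collagen, was called lower on the main tables (-0.64, adjusted p = 0.0339) but read 7031, 4802, 7227 and 5876 on version 2 (0.17, not called).

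Aldh3a1, an aldehyde dehydrogenase of airway epithelium, fell by 1.29 ± 0.16 (adjusted p = 0.00115), with version 2 readings of 3255, 2553, 1173 and 924, and by 1.13 against PBS of 24 h. Selenbp1, a selenium-binding protein, fell by 0.85 ± 0.10 (adjusted p = 9.34e-04) and Igf2, a fetal growth factor, by 1.47 ± 0.23 (adjusted p = 0.00643). Igf2 read 1182, 1324, 1102 and 311 on version 2, so ragweed 1a lay near the PBS samples there. Vasn, a TGF-beta-binding membrane protein, and Cldn12, a claudin, were measured on 1 version each, at 1859, 1552, 447 and 551 and at 6056, 5976, 2051 and 2351. Scnn1g, a subunit of the epithelial sodium channel, read 13843, 12066, 6172 and 6891 (main tables, -0.99 ± 0.17, adjusted p = 0.0499), a call that was lost in each of the 8 fits without 1 sample.

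**Figure D5:**
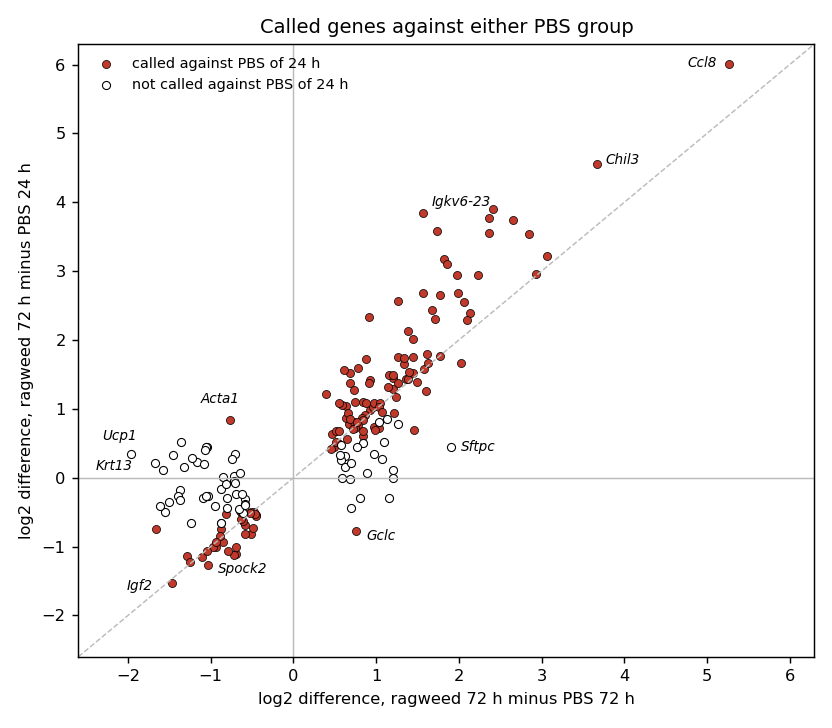
Each point is 1 of the 197 genes called in the fit on both versions, with the log2 difference against PBS of 72 h on the horizontal axis and against PBS of 24 h on the vertical axis; the dashed line marks equal values. Red points were also called against PBS of 24 h, in the opposite direction for Acta1 and Gclc. Of the genes called lower, 18 lie above 0 on the vertical axis.

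A few rises rested on the PBS samples of 72 h in the same way. Tspan1, a tetraspanin of secretory epithelium, rose by 1.20 ± 0.14 (adjusted p = 3.01e-04) and differed by 0.11 from PBS of 24 h. Chaperones of the endoplasmic reticulum, Sdf2l1, Pdia4, Pdia6 and Manf, rose by 1.16, 0.89, 0.62 and 0.70, the 4 called of 18 in their list, and none was called against PBS of 24 h. Gclc, the catalytic subunit of glutathione synthesis, rose by 0.76 ± 0.14 (adjusted p = 0.0199) and was called lower against PBS of 24 h (-0.78).

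Other main-table calls were contradicted by the other version of the array. Cyp2f2, the cytochrome P450 of club cells, read 21306, 21531, 12420 and 12024 on the first version (-0.81 ± 0.09, adjusted p = 0.00894) and 14238, 12942, 16554 and 14615 on version 2 (0.20, not called). The groups did not overlap on either version, with opposite order. Lctl, Uchl1, Aurkb and Nprl3 were called higher on their main table at 2.40, 1.95 or more, 1.32 and 1.68 or more, and differed by -0.31, -0.29, -0.20 and -0.31 on the other version. Aplp2, an amyloid precursor-like protein, was called lower at -0.77 and differed by 0.11. Adam28, a metalloprotease, differed by at least 2.26 on the first version, with PBS values of 223 and 254 below the floor, and by 0.66 on version 2, where it read 971, 861, 1486 and 1399 and was not called.

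The brightest genes also differed between versions. Sftpc, a surfactant protein of alveolar type II cells, read 1263, 567, 18524 and 6864 on version 2 A. On first-version A it read 50946, 57338, 61163 and 52066, a difference of 0.06. Hba-a1, a haemoglobin chain, read 967, 628, 13902 and 2521 on version 2 A, and 7559, 50946, 46102 and 40262 on the first version. The call of Sftpc in the fit on both versions (1.90 ± 0.23) rested on version 2 A. That of Hba-a1 (2.03 ± 0.40) came with first-version readings that overlapped. Whether the unequal actin ratios of version 2 A had a part was not tested. Without probe sets whose first-version mean was above 30000, 283 of 16804 were called in place of 280.

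The difference between ragweed and PBS at 72 h was itself different from that at 24 h in 9 of 25250 probe sets (0.0356%) by the interaction term of limma on the main tables, with 1 higher at 72 h (0.00396%) and 8 lower (0.0317%). The higher one was the Ighm probe set with the largest difference, and the lower ones included Krt13 and Krt4. No probe set was called in this test when 1 of the PBS samples of 72 h was left out, whichever it was.

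The promoters of the called genes were searched for TTC and GAA with 4 bases of any kind between them, the palindromic motif to which Stat6 binds. Windows from 250 bases before to 50 after the start of the gene came from RefSeq (build GRCm38.p6), 1 per gene, and since the motif reads the same on both strands 1 search covered both. It was found in 1 of 28 windows of the genes called higher on the main tables (3.57%), in 6 of 76 of those called higher with both versions (7.89%), in 4 of 63 of those called lower (6.35%), in 548 of 10226 of all genes tested (5.36%) and in 1888 of all 27025 windows (6.99%). A match is a run of letters, not a binding site. The windows shown are those of the macrophage genes Retnla, Itgax and Cd53 and of Il33, with up to 30 bases on each side and the motif in capitals, 5′ to 3′ on the strand of the gene. They lie at chr16:48842434-48842503 (plus strand), chr7:128129393-128129462 (plus), chr3:106790242-106790311 (minus) and chr19:29925047-29925112 (plus), all before the start.
Retnla: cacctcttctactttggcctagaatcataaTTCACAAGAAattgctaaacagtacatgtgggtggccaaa
Itgax: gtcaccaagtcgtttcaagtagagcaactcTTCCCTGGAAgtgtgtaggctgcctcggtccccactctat
Cd53: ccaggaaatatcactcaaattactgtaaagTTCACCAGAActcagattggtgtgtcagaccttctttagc
Il33: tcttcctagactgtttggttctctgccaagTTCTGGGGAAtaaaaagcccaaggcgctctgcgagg
The first base of the motif lay 145, 127, 132 and 36 bases before the start, in that order.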

How the data were processed

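Mouse lung RNA was measured on Affymetrix arrays, and the deposited values are linear intensity, 1 per probe set and array; which software the authors used was not stated in the labels or headers. First-version PBS arrays had deposited 2% trimmed means of 80.64 to 376.5 and all others of about 800. First-version arrays were restricted to probe set IDs shared with version 2, brought to a trimmed mean of 800 and then quantile normalized as log2 values, and version 2 arrays were kept as deposited. Values were raised to the 40th percentile of their table, probe sets above it on at least 2 arrays were tested, and each table was fitted with 1 mean per group (limma 3.58.1, R 4.3.3, eBayes with a trend). P-values were adjusted by Benjamini-Hochberg over 3 tables together and called under 0.05. One array of ragweed at 24 h whose title carries no sample letter was not used. No ragweed array of 24 h entered the version 2 A table. The number of arrays limits precision: the median SE was 0.21 to 0.45 by table. On simulated data, 46.2% of main-table probe sets changed by 2 on the log2 scale were called, 7.81% at 1 and 88.7% at 3.

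Symbols came from the array annotation. For each gene 1 probe set with no second symbol was used, from the first of A, B and C that held it and the brightest there. Named genes included the 15 largest rises and 12 largest falls called on the main tables with groups apart on every version that tested the probe set. The others were up to 5 called members of each of 54 lists and a set of 38 genes of the allergic response. Calls on the other tables, and genes that differed from 24 h or between versions, completed them. Genes called in the fit on both versions, and the uncalled list members named, were added after their values were seen. Members and lists were chosen with earlier results of these data known. Alternatives changed the normalization, floor, filter, log offset, trend, adjustment, samples, reference and replicate block. Correlations of the 1a minus 1b differences between groups ran from -0.08 to 0.13. They show no pairing of the samples by letter but cannot exclude one.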

Additional observations from a re-analysis of the deposited data

Results flagged for a closer look

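The difference between ragweed and PBS at 72 h was not that at 24 h for 9 of 25250 probe sets (0.0356%), by the interaction term of the limma fit on the main tables. A Krt13 probe set on version 2 B differed by -2.96 at 72 h and 2.24 at 24 h, a gap of -5.20 ± 0.49 (adjusted p = 0.00309); its PBS values were 160 and 253 at 24 h and 2670 and 2879 at 72 h. Both probe sets of the small proline-rich genes Sprr2a1, Sprr2a2 and Sprr2a3 gave gaps of -4.51 ± 0.31 and -3.31 ± 0.21, with 72 h differences of -0.02 and 0.04 beside 24 h differences of 4.50 and 3.35. PBS 72 h values of the first, 6271 and 7125, lay far above the 636 and 421 of PBS at 24 h. Fam25c gave -2.83 ± 0.30 and Krt4 -1.75 ± 0.19. Acta1 gave -2.31 ± 0.18, the probe set shared by H19 and Mir675 -2.28 ± 0.21, and Cyp2f2 -1.46 ± 0.13.

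An Ighm probe set was the one with a larger difference at 72 h, by 3.41 ± 0.29 (adjusted p = 0.00868). It lay below the floor of 291.6 in all samples of 24 h, at 49 and 23 in PBS and 285 and 65 in ragweed, and read 690 and 707 in PBS and 7292 and 7592 in ragweed at 72 h. When 1 of the PBS samples of 72 h was left out, whichever it was, no probe set was called for this difference.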

How the results depend on the processing

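The count of called probe sets depended on the samples. Leaving out 1 sample gave 25 to 87 calls on the main tables (133 with all), 0 to 77 on the other tables (85), 0 to 10 for the difference from 24 h (9) and 124 to 281 with both versions (280). The lowest counts came without PBS 72 h 1b (25) or 1a (26), without ragweed 72 h 1a (0 on the other tables) and without ragweed 72 h 1b (124 with both versions). Where a group kept 1 sample, that sample is assumed to vary like the others. PBS of 24 h as the reference, chosen after the data were seen, gave 236, 460 and 695 calls, and PBS of both times 238, 322 and 540. The fit on both versions called 280 in place of 133. Only the 72 h arrays, with fewer residual degrees of freedom, gave 2 on the main tables and 0 on the other tables. Without the variance trend there were 80 and 51 calls. Adjusting within each table gave 171 on the other tables and 23 for the difference, the lower floor 48 on the other tables and no dim filter 123 for the difference. With 1a and 1b as a replicate block, 90 probe sets were called on the main tables, 82 on the other tables and 334 with both versions. The labels do not say whether the letters pair samples.

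Of 58 named genes called on the main tables, 40 were called in the same direction against PBS of 24 h and 31 with no dim filter. Against PBS of 24 h the fall was absent or the sign turned for 5 of the 58, Cyp2f2 (0.87), Cysrt1 (0.00), Krt13 (0.19), Krt4 (0.28) and Mt4 (0.22), and against PBS of both times for Cyp2f2 (0.03). Acta1 (1.26) and Scgb1a1 (1.18), below 0 but not called against PBS of 72 h, were called higher there. On the other version they turned for Aplp2 (0.11), Aurkb (-0.20), Col1a1 (0.17), Cyp2f2 (0.20), Lctl (-0.31), Nprl3 (-0.31) and Uchl1 (-0.29). The causes were not tested. No sign turned in the 464 values of called named genes from fits without 1 sample, and 198 of these passed.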
